A study of Mus musculus with 15 samples.

Results

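Interferon-stimulated genes are the genes that cells switch on when interferon binds its receptors, and 43 of them were followed through the livers of mice on a steatohepatitis diet. They were taken by name from a list of well-known members: all 43 were present among the 57132 gene identifiers of the count table, and all 43 passed the filter on low counts together with the rest of the 18181 genes tested. The list holds nucleic acid sensors, transcription factors, and the antiviral proteins that act on RNA, at membranes or on the vacuoles of intracellular microbes. The RNA came from whole liver of male C57BL/6J mice, 8 weeks old at the start, in 3 groups that differed in diet and injection. The SR9009 group (5 libraries) ate CDA-HFD, a choline-deficient high-fat diet with adapted amino acid content, for 18 weeks. After 12 of those weeks they began 6 weeks of daily intraperitoneal SR9009 at 100 mg/kg per day. The Vehicle group (5 libraries) had the same 18 weeks of CDA-HFD and the same schedule of injections, with 15% Kolliphor ELP in saline and no drug. The Chow group (4 libraries) ate a standard diet for 18 weeks. SR9009 is a synthetic agonist of REV-ERB alpha and beta, nuclear receptors that repress transcription in the circadian clock. No injection is recorded for the Chow mice, so between Vehicle and Chow the effects of diet and of injection cannot be told apart. The labels do not say that each library came from a different mouse, so the p-values measure the spread between these samples.

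Type I and type III interferons act through the kinases JAK1 and TYK2, which phosphorylate STAT proteins. STAT2 and IRF9 are parts of the complex ISGF3, which binds an interferon-stimulated response element (ISRE) in the promoters of its targets. Type II interferon, the product of Ifng, acts mainly at a gamma-activated site (GAS), and it is the main inducer of the guanylate-binding proteins and the immunity-related GTPases. In liver, hepatocytes, Kupffer cells, endothelium and infiltrating leukocytes all carry interferon receptors.

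Total counts per library lay between 29950509 and 45542335. Levels below are in CPM, that is counts relative to the library total after scaling with TMM factors (trimmed mean of M-values), unless raw counts are named. A floor of 3 counts per library corresponds to 0.0659 to 0.100 CPM on raw totals, for counting error only. In bulk tissue, fewer cells of a type and less RNA per cell cannot be told apart. Defining hepatocyte genes were abundant in all 14 libraries, with Alb between 44200 and 104000 CPM. The diet-fed libraries fall into 2 classes by how many chemosensory receptor genes (olfactory, vomeronasal or trace amine), of 1752 in the table, had any count. Few were detected, 58 to 76, in SR9009 replicates 1 and 3 and Vehicle replicates 4 and 5, and many, 150 to 231, in SR9009 replicates 2, 4 and 5 and Vehicle replicates 1, 2 and 3. All Chow libraries had 105 or fewer. What sets this class was not tested. Calls that differ when diet-fed libraries of a single class are set against Chow are given with each comparison to Chow.

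The promoters of interferon-stimulated genes are known for the letters they share, so they are shown first. RefSeq (GRCm38.p6) gave a promoter for 33 of the 43 genes. The 250 bases before the start were searched on both strands for a shortened ISRE, spelled GAAANNGAA (TTCNNTTTC on the other strand), and for the GAS letters TTCNNNGAA, which read the same on both strands. Matches were allowed to overlap. The ISRE letters stood in 19 of the 33 promoters (57.6%), against 8.18% of the 27025 genes with a promoter in the table. The GAS letters stood in 10 of the 33 (30.3%), against 8.13% of all genes. Among the 20 of these genes that were called higher in Vehicle than in Chow (below), 12 held the ISRE letters (60%), and among the 13 that were not called 7 did (53.8%). A match is a description of letters, not evidence of binding. The 160 bases before the start are printed for 5 genes of different roles whose levels are given in full, 5′ to 3′ on the gene's own strand, with the ISRE letters in capitals.
Oas1a, chr5:120907526-120907685, minus strand: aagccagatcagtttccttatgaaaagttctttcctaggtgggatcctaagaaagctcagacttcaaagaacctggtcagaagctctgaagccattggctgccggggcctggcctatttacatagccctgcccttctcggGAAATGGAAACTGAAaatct
Ifit3, chr19:34583369-34583528, plus strand: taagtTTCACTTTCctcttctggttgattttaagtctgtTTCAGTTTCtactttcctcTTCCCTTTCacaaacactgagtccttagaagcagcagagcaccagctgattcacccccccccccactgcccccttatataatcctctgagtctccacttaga
Rsad2, chr12:26456453-26456612, minus strand: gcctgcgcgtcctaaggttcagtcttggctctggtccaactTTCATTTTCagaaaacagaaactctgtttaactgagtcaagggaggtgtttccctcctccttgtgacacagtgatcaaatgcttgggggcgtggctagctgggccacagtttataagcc
Gbp2, chr3:142620503-142620662, plus strand: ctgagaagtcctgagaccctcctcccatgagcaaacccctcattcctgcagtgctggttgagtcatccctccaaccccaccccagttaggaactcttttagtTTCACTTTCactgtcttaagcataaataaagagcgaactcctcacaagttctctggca
Trim30a, chr7:104465194-104465353, minus strand: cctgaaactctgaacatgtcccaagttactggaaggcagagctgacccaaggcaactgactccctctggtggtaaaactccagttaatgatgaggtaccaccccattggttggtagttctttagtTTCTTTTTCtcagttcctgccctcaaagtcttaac
Ifit3 holds the letters at 3 separate places, and in Oas1a overlapping matches form the capital run next to the start.

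Vehicle was compared with Chow to see what the diet and vehicle injections did to these genes. The interferon-stimulated genes were mostly higher in Vehicle livers: 27 of 43 were called higher, none lower, and 16 were not called (edgeR quasi-likelihood test, Benjamini-Hochberg adjusted p under 0.05 over all tested genes). Over all tested genes 29.8% were called higher and 25.4% lower. Of the 27, 19 differed at least 2-fold. The median log2 fold change over the 43 was 0.86, against 0.02 over all tested genes. In 22 of 43 every Vehicle library was above every Chow library, a pattern that 24.7% of all tested genes showed, and in none was every one below, as in 20.7% of all tested genes. Oas1a, Oas3, Ifi44, Oasl2, Usp18 and Ifit2 had the largest fold changes, while over all Vehicle libraries the RNA helicase sensors, the immunity-related GTPases among the 43, Ifitm2, Ifitm3 and Bst2 were not called.

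**Figure D1:**
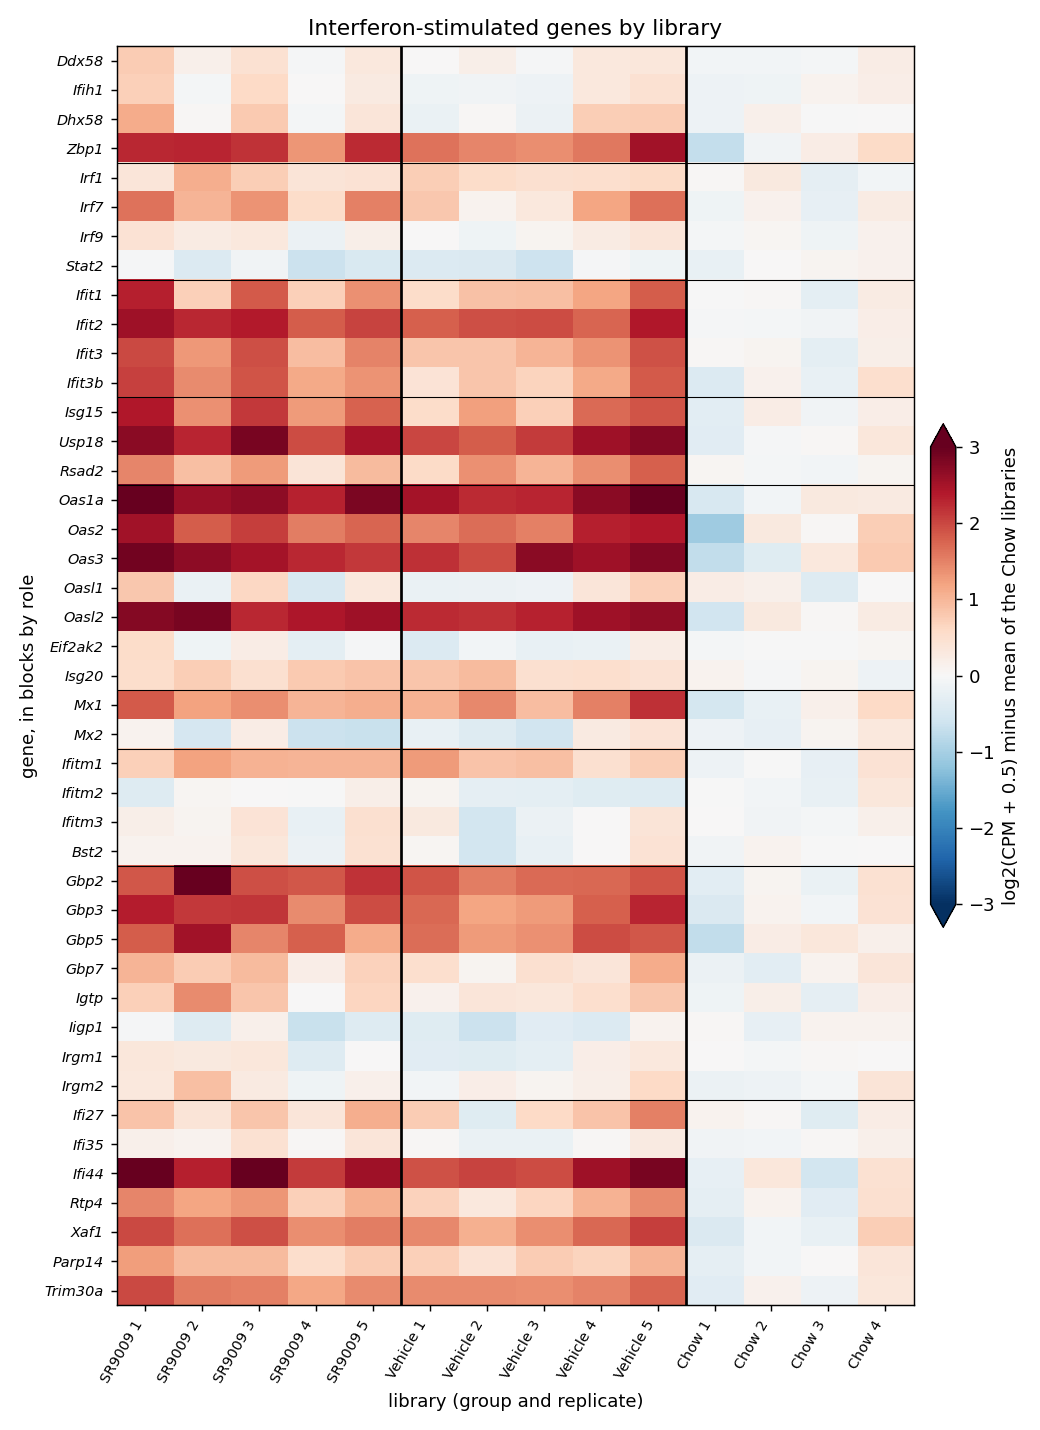
Heat map of the 43 genes (rows, in blocks by role) in the 14 libraries (columns), as log2(CPM + 0.5) minus the gene's mean over the 4 Chow libraries; colours are cut at 3 in either direction. Oas1a, Oas3, Ifi44 and Usp18 are red in all SR9009 and Vehicle libraries, while Stat2, Mx2, Ifitm2 and Iigp1 stay near or below the Chow level.

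Markers of leukocytes moved in the same comparison, in which 29.8% of all tested genes were called higher and 25.4% lower. All 8 monocyte and macrophage markers were called higher in Vehicle than in Chow. Their summed level was 1160 to 1860 CPM in Vehicle livers and 79.5 to 257 CPM in Chow livers. Of 6 plasmacytoid dendritic cell markers, 4 were called higher, with a summed level of 4.38 to 7.96 CPM in Vehicle livers and 1.60 to 3.17 CPM in Chow livers. Klk1 and Cox6a2 of that list were at 0 in 3 Chow libraries each. Siglech, a defining marker of those cells, was at 1.61 to 2.45 CPM in Vehicle livers and 0.172 to 0.371 CPM in Chow livers. Of 9 T and NK cell markers, 7 were called higher, and the sums were 12.9 to 15.9 CPM in Vehicle and 4.67 to 7.05 CPM in Chow. Of 8 hepatocyte markers 7 were called lower, and none of 5 tested B and plasma cell markers was called. All 4 tested neutrophil markers were called higher, at 15.0 to 77.3 CPM summed in Vehicle and 3.09 to 14.8 CPM in Chow, while their defining marker Ly6g was at 0 in 3 Chow libraries. The 77.3 CPM was that of Vehicle replicate 2, with 15.0 to 34.9 CPM in the other Vehicle livers. In 1 of the 4 every Vehicle library was above every Chow library, as in 24.7% of all tested genes. All 4 cholangiocyte markers were called higher. Kupffer cell markers gave 1 higher and 2 lower of 6, sinusoidal endothelium 1 higher and 1 lower of 6, and red cells 1 lower of 5. The part of these cell markers in the higher interferon-stimulated genes was not tested.

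Among the 4 cytosolic sensors, Zbp1, which senses Z-form nucleic acids and can trigger necroptosis, was the only one called. It was at 19.5, 17.4, 16.5, 18.9 and 36.3 CPM in Vehicle replicates 1 to 5, against 3.44, 5.53, 7.02 and 9.11 CPM in Chow replicates 1 to 4, with no overlap. It was 3.47-fold higher (adjusted p = 0.000191, log2 fold change 1.8 ± 0.31, where the error, as for all log2 fold changes here, is the SE). The 3 RNA helicases of viral RNA detection were not called over all libraries, but were called higher between the Vehicle libraries with few receptor genes and Chow, whose libraries all have few. There the log2 fold change was 0.33 for Ddx58 (adjusted p = 0.035), 0.38 for Ifih1 (adjusted p = 0.0131) and 0.77 for Dhx58 (adjusted p = 0.000445). With the class as a term in the fit it was 0.39, 0.40 and 0.76 (adjusted p = 0.00754, 0.00319 and 0.000108). As all Chow libraries have few, that fit also compares at few receptor genes and is not a separate test. Ddx58, encoding RIG-I, was at 39.4, 44.0, 37.9, 48.8 and 49.8 CPM in Vehicle livers, against 36.7, 37.0, 37.2 and 45.6 CPM in Chow livers. Dhx58, encoding their regulator LGP2, was at 9.49, 11.2, 9.73, 18.8 and 18.9 CPM in Vehicle livers, against 9.89, 12.2, 10.9 and 11.1 CPM in Chow livers. For both genes the groups overlapped, with only Vehicle replicates 4 and 5 high. Ifih1, encoding MDA5, had a log2 fold change of 0.09 ± 0.17 (adjusted p = 0.679).

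Of the 4 transcription factors, 2 were called higher. Irf1, a factor induced above all by interferon gamma, was at 48.7, 42.1, 40.2, 41.0 and 42.8 CPM in Vehicle livers and at 29.7, 35.5, 24.0 and 27.2 CPM in Chow livers, 1.48-fold higher with no overlap (adjusted p = 0.00409). Irf7, which amplifies interferon alpha production, was at 55.5, 33.5, 39.1, 71.2 and 99.9 CPM in Vehicle livers and at 28.6, 34.3, 26.1 and 37.4 CPM in Chow livers. It was 1.89-fold higher (adjusted p = 0.0191), but the groups overlapped, and the call was lost without Chow replicate 1 (adjusted p = 0.0535) or Chow replicate 3 (adjusted p = 0.0548). The 2 ISGF3 subunits among the members were not called over all libraries. Stat2 was at 74.6, 72.7, 63.4, 95.8 and 89.6 CPM in Vehicle livers, against 84.0, 98.9, 105 and 108 CPM in Chow livers. Its log2 fold change of -0.32 ± 0.14 missed the threshold (adjusted p = 0.0591), while DESeq2 and limma-voom called it lower (adjusted p = 0.0484 and 0.0216), as did edgeR without any 1 of 5 libraries (Chow replicate 1, Vehicle replicates 4 and 5, SR9009 replicates 1 and 4). Irf9 had a log2 fold change of 0.12 ± 0.12 (adjusted p = 0.408).

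All 4 IFIT genes, whose products bind foreign RNA and block its translation, rose. Ifit2 was at 12.6, 14.1, 14.3, 12.2 and 19.7 CPM in Vehicle livers, against 3.19, 3.12, 3.05 and 3.88 CPM in Chow livers. It was 4.42-fold higher (adjusted p = 1.06e-07, log2 fold change 2.14 ± 0.18). Ifit3, whose promoter is printed above, was at 17.3, 17.2, 19.8, 24.7 and 36.7 CPM in Vehicle livers, against 9.65, 9.96, 7.68 and 10.8 CPM in Chow livers. The Vehicle libraries stood above the Chow libraries for both genes, and Ifit3 was 2.43-fold higher (adjusted p = 0.000642). Ifit3b was at 3.06, 4.33, 3.75, 5.38 and 9.16 CPM in Vehicle livers and 1.51, 2.43, 1.82 and 3.34 CPM in Chow livers, 2.27-fold higher with overlapping groups (adjusted p = 0.00645). Ifit3 and Ifit3b are near copies: 31.7% of the 100-base stretches of Ifit3 transcripts and 27.4% of those of Ifit3b occur in the other, so their split of reads is uncertain. Ifit1 was 2.29-fold higher (adjusted p = 0.0107).

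The ISG15 system and viperin rose as well, 3 of 3. Usp18, the protease that removes ISG15 from proteins and damps signalling at the type I receptor, was at 19.0, 16.6, 20.3, 28.0 and 32.3 CPM in Vehicle livers, against 3.33, 4.21, 4.5 and 5.69 CPM in Chow livers. It was 5.26-fold higher (adjusted p = 9.92e-07, log2 fold change 2.39 ± 0.24). Isg15, a ubiquitin-like modifier, was at 9.42, 15.3, 10.6, 21.3 and 24.2 CPM in Vehicle livers and at 4.91, 7.36, 5.73 and 7.21 CPM in Chow livers, 2.56-fold higher (adjusted p = 0.00186). Rsad2, encoding viperin, which makes a chain-terminating nucleotide, was at 13.5, 23.9, 18.4, 24.3 and 31.9 CPM in Vehicle livers and at 9.23, 8.56, 8.37 and 9.40 CPM in Chow livers, 2.52-fold higher (adjusted p = 0.000207). None of the 3 overlapped between the groups.

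The OAS genes, whose products make oligoadenylates that activate RNase L, included the largest fold changes of the 43. Oas1a (ENSMUSG00000052776.11) was at 17.5, 14.5, 15.0, 20.2 and 25.9 CPM in Vehicle livers, against 1.79, 2.49, 3.38 and 3.34 CPM in Chow livers. It was 6.79-fold higher (95% interval 4.75 to 9.70-fold, adjusted p = 2.5e-07, log2 fold change 2.76 ± 0.24). Oas1a shares 40.9% of its 100-base stretches with Oas1g, so part of its counts may belong to that gene. Oas3 was at 7.30, 6.16, 10.7, 9.47 and 11.2 CPM in Vehicle livers and at 0.526, 0.830, 1.62 and 2.43 CPM in Chow livers, 6.74-fold higher (adjusted p = 8.69e-06). Oasl2 was at 24.0, 23.4, 25.4, 30.0 and 32.4 CPM in Vehicle livers and at 3.02, 5.90, 4.87 and 5.69 CPM in Chow livers, 5.55-fold higher (adjusted p = 4.74e-08). These 3 genes parted the groups with wide gaps. Oas2 was 3.86-fold higher and the exonuclease gene Isg20 1.66-fold higher, both without overlap. Oasl1, which in mouse restrains the translation of IRF7, and Eif2ak2, encoding the RNA-activated kinase PKR, were not called over all libraries, at log2 fold changes of 0.14 ± 0.27 and -0.13 ± 0.16.

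The 2 Mx genes, dynamin-like antiviral GTPases, parted. Mx1, of which common inbred strains carry a defective allele, was at 4.20, 5.69, 3.87, 6.01 and 9.95 CPM in Vehicle livers, against 1.09, 1.46, 2.05 and 2.97 CPM in Chow livers. It was 3.17-fold higher with no overlap (adjusted p = 0.00043, log2 fold change 1.66 ± 0.32). Mx2 was at 6.89, 6.09, 5.28, 9.80 and 10.8 CPM in Vehicle livers, against 7.19, 6.76, 8.57 and 10.1 CPM in Chow livers. Its groups overlapped, and it was not called (-0.06 ± 0.25, adjusted p = 0.845).

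Among the membrane restriction factors, which block the entry or release of enveloped viruses, 1 of 4 rose. Ifitm1 was at 12.5, 9.18, 9.61, 7.02 and 8.46 CPM in Vehicle livers, against 4.32, 4.78, 4.01 and 6.72 CPM in Chow livers, 1.89-fold higher with no overlap (adjusted p = 0.000411). Ifitm2 was at 33.9, 26.4, 26.1, 24.7 and 24.2 CPM in Vehicle livers, against 31.6, 30.2, 27.2 and 40.6 CPM in Chow livers. Ifitm3 was at 424, 237, 310, 353 and 457 CPM in Vehicle livers, against 349, 323, 336 and 387 CPM in Chow livers. Both overlapped between the groups, with log2 fold changes of -0.26 ± 0.13 for Ifitm2 (adjusted p = 0.112) and 0.03 ± 0.17 for Ifitm3 (adjusted p = 0.89). Ifitm2 shares 34.9% of its 100-base stretches with other genes. Bst2, encoding tetherin, was at -0.02 ± 0.16.

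The guanylate-binding proteins (GBPs) and the immunity-related GTPases (IRGs) act together against microbes in vacuoles. Among the members, the 4 GBP genes were called and the 4 IRG genes were not. All 4 GBP genes rose. Gbp2 was at 14.6, 11.4, 12.9, 13.0 and 14.7 CPM in Vehicle livers, against 2.77, 3.84, 3.05 and 5.11 CPM in Chow livers, 3.62-fold higher (adjusted p = 3.3e-05, log2 fold change 1.85 ± 0.27). Gbp3 was at 16.4, 11.2, 12.0, 17.3 and 24.6 CPM in Vehicle livers and at 3.30, 5.01, 4.37 and 6.43 CPM in Chow livers, 3.42-fold higher (adjusted p = 3.43e-05). Gbp5, which promotes inflammasome assembly, was at 3.97, 2.89, 3.17, 4.94 and 4.61 CPM in Vehicle livers and at 0.351, 1.15, 1.29 and 1.07 CPM in Chow livers, 4.04-fold higher (adjusted p = 0.000179). None of these 3 overlapped between the groups. Gbp7 was 1.47-fold higher with overlap (adjusted p = 0.0361), a call lost without any 1 of 5 libraries (Chow replicates 1 to 3, Vehicle replicates 1 and 5). None of the 4 IRG genes was called in the fit of all 3 groups. Igtp, which with Irgm1 and Irgm2 forms the regulatory kind of IRG, had a log2 fold change of 0.44 ± 0.22 (adjusted p = 0.104). It was called when SR9009 replicate 2 or 4, which enter through the shared spread, was left out (adjusted p = 0.0411 and 0.0424). Igtp was also called higher when edgeR was fitted to Vehicle and Chow alone (0.47, adjusted p = 0.016). Irgm2 was at 0.20 ± 0.19. Irgm1 was at -0.07 ± 0.16 and Iigp1, encoding an effector that attacks the vacuole, at -0.32 ± 0.16 (adjusted p = 0.108). This does not hold for the whole IRG family, since Tgtp1 and Tgtp2, IRG genes outside the members, lay higher without overlap. Tgtp1 was at 6.6 to 17.3 CPM in Vehicle livers and 0.596 to 1.81 CPM in Chow livers. Tgtp2 was at 4.8 to 6.14 CPM in Vehicle livers and 1.12 to 2.8 CPM in Chow livers.

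Of the 7 other genes, 6 rose. Trim30a, a ubiquitin ligase family gene that damps NF-kappaB signalling in mouse, was at 20.5, 20.6, 20, 21.6 and 25.6 CPM in Vehicle livers, against 5.72, 8.13, 6.59 and 9.40 CPM in Chow livers, 2.91-fold higher (adjusted p = 1.59e-06, log2 fold change 1.54 ± 0.17). Ifi44 was at 9.10, 9.88, 9.52, 14.4 and 17.9 CPM in Vehicle livers and at 1.65, 2.75, 1.26 and 3.01 CPM in Chow livers, 5.63-fold higher (adjusted p = 1.38e-05). Xaf1, which binds the apoptosis inhibitor XIAP, was at 15.1, 11.4, 14.5, 18.2 and 23.5 CPM in Vehicle livers and at 3.75, 4.87, 4.37 and 9.07 CPM in Chow livers, 3.01-fold higher (adjusted p = 9.32e-05). The groups did not overlap for these 3 genes. Parp14, an ADP-ribosyltransferase gene, was 1.66-fold higher without overlap. Rtp4 at 1.81-fold and Ifi27 at 1.71-fold (adjusted p = 0.0308) were higher with overlapping groups, and the Ifi27 call was lost without any 1 of 5 libraries (Chow replicates 1 to 3, Vehicle replicates 4 and 5). Ifi35 was not called, at 0.00 ± 0.12 (adjusted p = 0.988).

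**Figure D2:**
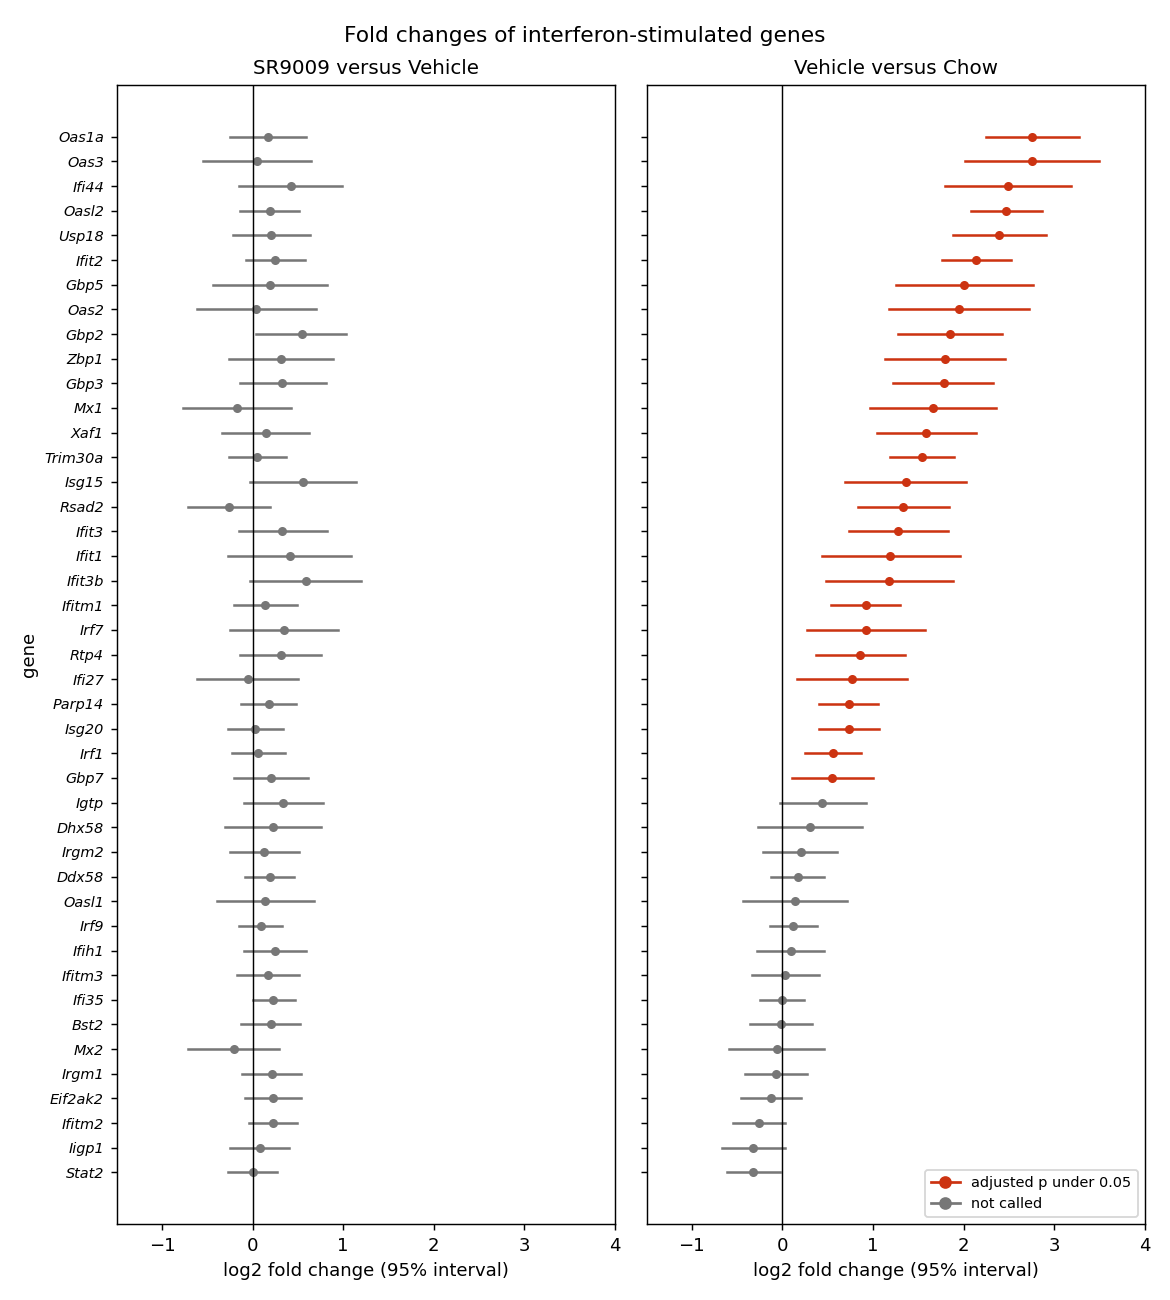
Log2 fold change of each gene with its 95% interval, for SR9009 versus Vehicle (left) and Vehicle versus Chow (right), in the order of the Vehicle versus Chow value; red marks an adjusted p under 0.05. On the right 27 genes are red and reach 2.76 for Oas1a, while on the left none is red and the values lie between -0.26 and 0.59.

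Of the 27 higher calls 24 were made under every alternative tried. Irf7, Gbp7 and Ifi27 lost theirs in several, such as without the low-count filter (adjusted p = 0.0542, 0.0611 and 0.084 by edgeR). Calls of some other members changed with the receptor class. Between the Vehicle libraries with few receptor genes and Chow, 32 members were higher and none lower, against 4423 and 3347 of 18181 tested genes. The 5 gained were the helicases Ddx58, Ifih1 and Dhx58, with the values given above, Irf9 (log2 fold change 0.31, adjusted p = 0.043) and Oasl1 (0.53, adjusted p = 0.0404). The same 5 were called higher with the class as a term, a fit that also compares at few receptor genes and so is not a separate test. Between those with many and Chow, 24 were higher, with Irf7 (0.43, adjusted p = 0.143), Gbp7 (0.37, adjusted p = 0.141) and Ifi27 (0.39, adjusted p = 0.248) no longer called. In that fit 4 were lower, namely Stat2 (log2 fold change -0.49, adjusted p = 0.000495), Iigp1 (-0.45, adjusted p = 0.00915), Mx2 (-0.42, adjusted p = 0.0304) and Irgm1 (-0.34, adjusted p = 0.0197). Of 18181 tested genes 5603 were higher and 4666 lower there, a larger share lower than among the members. As all Chow libraries have few, that fit changes class along with diet and injection, and these cannot be told apart. Between the classes of diet-fed libraries, few minus many was 0.42 for Stat2, 0.43 for Iigp1, 0.79 for Mx2 and 0.46 for Irgm1 on the log2 scale. Leaving out Vehicle replicate 5 gave 25 higher and 2 lower, Stat2 (-0.37, adjusted p = 0.0423) and Iigp1 (-0.44, adjusted p = 0.0216). Without that library 5329 of 18079 tested genes were higher and 4493 lower. TMM factors were 0.753 to 0.824 in Chow and 1.02 to 1.15 in diet-fed libraries. On raw totals the median of all genes moved by 0.48, and 38 members and 10389 of 18181 tested genes were higher.

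The rest of the interferon pathway was read from lists of other genes. Of 21 interferon ligands none passed the filter on low counts, and Ifnb1 and most interferon alpha genes had no count in any library, which allows them up to the floor of 3 counts in each. In raw counts, Ifng had 3, 25, 3, 1 and 0 in SR9009 livers, 9, 9, 12, 1 and 3 in Vehicle livers, and 0, 0, 1 and 1 in Chow livers. Ifnk had 2, 2, 0, 1 and 10 counts in SR9009 livers, 1, 3, 3, 1 and 2 in Vehicle livers, and 9, 5, 8 and 0 in Chow livers. Ifna5, Ifna7, Ifna13, Ifnz and Ifnl3 had 3 or fewer counts in any library. These counts were too low for a test, and for Ifng and Ifnk the groups overlapped.

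Genes of the interferon receptors were among those that rose in Vehicle livers. Ifngr1 and Ifngr2, the chains of the interferon gamma receptor, were 2.93-fold and 2.54-fold higher (adjusted p = 9.58e-08 and 6.29e-07). Ifnar2, a chain of the type I receptor, was 1.84-fold higher (adjusted p = 3.07e-05). Among 15 genes of the pathway that induces interferon, 8 were higher and 2 lower, where 29.8% of all tested genes were higher and 25.4% lower. Tmem173, encoding the DNA-sensing adaptor STING, was 4.88-fold higher (adjusted p = 1.02e-06), and Unc93b1, the chaperone of nucleic acid-sensing Toll-like receptors, 2.02-fold higher (adjusted p = 6.6e-07). Mavs, the adaptor that RIG-I and MDA5 signal through, was lower, with a log2 fold change of -1.05 ± 0.10 (adjusted p = 4.89e-07). It was at 61.8, 55, 65, 57.2 and 72.5 CPM in SR9009 livers, at 60.5, 60, 54.1, 69.7 and 68.7 CPM in Vehicle livers and at 140, 134, 138 and 107 CPM in Chow livers, so that every diet-fed library was below every Chow library. The other gene that fell, named after its value was seen, was Irf3, the factor activated downstream of Mavs, with a log2 fold change of -0.33 ± 0.08 (adjusted p = 0.00137).

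Of 10 tested genes that restrain the response or clear self nucleic acids, 3 were higher and 2 lower, shares near those of all tested genes (29.8% higher and 25.4% lower). Samhd1, a dNTP hydrolase gene, was 2.07-fold higher (adjusted p = 1.72e-06). Irf2, an antagonist of IRF1, had a log2 fold change of -0.63 ± 0.10 (adjusted p = 5.38e-05) and Rnaseh2c, a subunit of RNase H2, one of -0.70 ± 0.10 (adjusted p = 3.5e-05). The other 2 that rose, named after their values were seen, were Socs1, which inhibits JAK kinases, at 4.21-fold, and Rnaseh2b at 1.60-fold. Trex1 was listed at 0 in all 14 libraries, and whether its reads were counted under another identifier was not tested. A further 40 tested interferon-stimulated genes outside the 43 gave 34 higher and 1 lower, against the same shares of all tested genes, with a median log2 fold change of 1.65. Ifi207 was 4.53-fold, Ly6a 5.84-fold and Ifi204 3.10-fold higher (adjusted p = 1.14e-08, 1.44e-08 and 5.94e-08). The gene that fell, named after its value was seen, was Helz2, with a log2 fold change of -0.86 ± 0.21 (adjusted p = 0.0026).

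SR9009 was compared with Vehicle to see whether the drug changed these genes in diet-fed livers. None of the 43 was called by edgeR, DESeq2 or limma-voom, where edgeR called 0.165% of all tested genes higher and 0.077% lower. At an unadjusted p under 0.05, 2 members were higher and none lower in edgeR, 4 in DESeq2 and 2 in limma-voom, against 3.91% of all tested genes higher and 3.37% lower in edgeR. No member had SR9009 and Vehicle libraries fully apart, as 0.891% of all tested genes did in the higher and 0.979% in the lower direction. The log2 fold changes were small and mostly above 0: 38 of 43 were positive, with a median of 0.19 against 0.00 over all tested genes. Since the 43 genes move together between livers, as given below, this common sign is not 38 separate observations.

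Of the 2 members with an unadjusted p under 0.05, Gbp2 was at 14.4, 34.8, 15.2, 14.4 and 17.8 CPM in SR9009 livers and at 14.6, 11.4, 12.9, 13.0 and 14.7 CPM in Vehicle livers. Its log2 fold change was 0.54 ± 0.23 (unadjusted p = 0.0334, adjusted p = 0.616 by edgeR). The groups overlapped, and 1 library, SR9009 replicate 2, stood far above the others. Without it the value was 0.21. Ifi35, whose product forms a complex with NMI, was at 18.2, 17.7, 22.6, 16.7 and 21.2 CPM in SR9009 livers and at 16.7, 14.3, 14.2, 16.8 and 19.8 CPM in Vehicle livers (0.23 ± 0.11, unadjusted p = 0.0463, adjusted p = 0.665 by edgeR). Here the SR9009 libraries lay higher by a small and overlapping margin.

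The next 4 by p-value were antiviral genes and Ifitm2. Ifit3b was at 10.7, 6.75, 9.41, 5.42 and 6.37 CPM in SR9009 livers, against the Vehicle values of 3.06 to 9.16 CPM given above (0.59 ± 0.29, adjusted p = 0.714). Isg15 was at 34.8, 17.0, 28.9, 15.8 and 22.4 CPM in SR9009 livers, against 9.42 to 24.2 CPM in Vehicle livers (0.56 ± 0.27, adjusted p = 0.717). In both genes SR9009 replicates 1 and 3 and Vehicle replicate 5 were the highest of their groups. For Isg15 Vehicle replicate 4 was also high, at 21.3 CPM. Ifitm2 was at 24.3, 33.6, 32.2, 31.7 and 36.1 CPM in SR9009 livers, against 24.2 to 33.9 CPM in Vehicle livers (0.22 ± 0.13, adjusted p = 0.778). Ifit2 was at 21.8, 17.8, 19.3, 12.8 and 15.1 CPM in SR9009 livers, against 12.2 to 19.7 CPM in Vehicle livers (0.25 ± 0.15, adjusted p = 0.801). All 4 overlapped between the groups.

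The 5 members with a negative value were Rsad2 at -0.26 ± 0.21, Mx2 at -0.21 ± 0.23, Mx1 at -0.17 ± 0.28, Ifi27 at -0.05 ± 0.26 and Stat2 just below 0. For the 6 genes with the largest fold change of Vehicle over Chow, the 95% interval of SR9009 over Vehicle was 0.843 to 1.51-fold for Oas1a, 0.685 to 1.56-fold for Oas3, 0.902 to 1.98-fold for Ifi44, 0.906 to 1.43-fold for Oasl2, 0.858 to 1.55-fold for Usp18 and 0.953 to 1.49-fold for Ifit2. Oas1a was at 29.2, 18.6, 19.9, 15.3 and 21.9 CPM in SR9009 livers, which overlaps the Vehicle values. Usp18, at 31.3, 23.3, 34.4, 18.4 and 26.6 CPM in SR9009 livers, overlapped with Vehicle in the same way.

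The size of this small difference hung on single libraries. Without Vehicle replicate 5, the liver with the highest mean of the Vehicle group over the 43 genes, the median log2 fold change was 0.31 and 16 members had an unadjusted p under 0.05. Without SR9009 replicate 4, the lowest of its group, it was 0.27 with 9 such members, and without Vehicle replicate 2 it was 0.13 with none. No member was called after adjustment in any of these. Leaving out the highest Vehicle or the lowest SR9009 liver over these genes widens their difference by construction. Leaving out Vehicle replicate 2, the lowest of its group, narrows it by construction. Within libraries with few receptor genes, 2 of each group, the median was 0.11 with 2 members at an unadjusted p under 0.05, all higher, and within those with many, 3 of each group, it was 0.23 with 9. With the class as a term in the fit of all libraries it was 0.20 with 10, all higher. The share of all tested genes at an unadjusted p under 0.05 was not counted in these fits. The member counts therefore have no background to be read against.

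In the other pathway lists SR9009 called nothing against Vehicle. Among interferon receptor genes the 2 smallest p-values belonged to Ifnar1 (log2 fold change -0.09 ± 0.06, adjusted p = 0.811) and Il10rb, a chain of the type III receptor (-0.30 ± 0.27, adjusted p = 0.909). In the induction list they belonged to Ikbke (0.24 ± 0.14, adjusted p = 0.801) and Trim25 (-0.12 ± 0.10, adjusted p = 0.882), and in the restraining list to Rnaseh2b (0.19 ± 0.11, adjusted p = 0.786) and Irf2 (0.14 ± 0.09, adjusted p = 0.851). Among the further interferon-stimulated genes, Lgals3bp, a secreted glycoprotein gene, was at 276, 254, 239, 229 and 262 CPM in SR9009 livers, at 187, 187, 176, 212 and 212 CPM in Vehicle livers and at 94.3, 96.8, 82.4 and 102 CPM in Chow livers. No SR9009 library overlapped with Vehicle, and its log2 fold change of 0.37 ± 0.08 had an unadjusted p of 0.000352 and an adjusted p of 0.102 in edgeR. Ifi204 was at 0.20 ± 0.11 (adjusted p = 0.782). No marker of any of the 10 cell types was called between SR9009 and Vehicle.

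**Figure D3:**
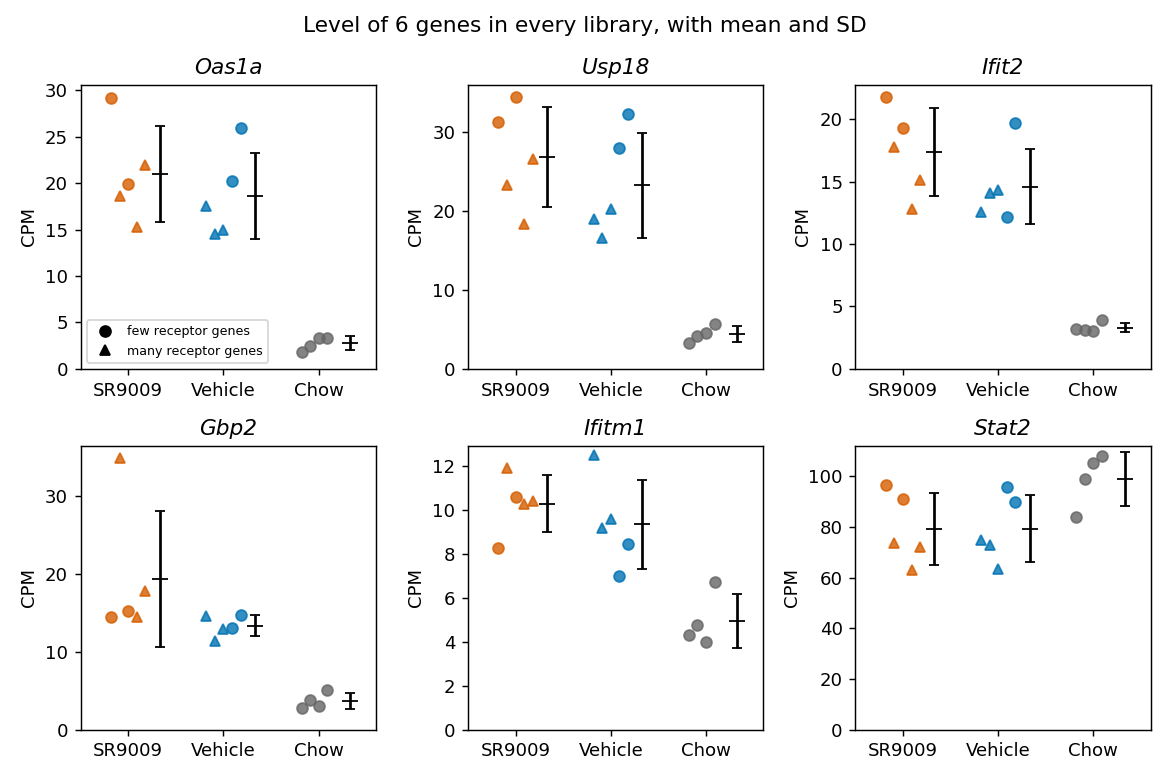
CPM of 6 genes in every SR9009, Vehicle and Chow library, with the group mean and SD beside the points; circles are libraries with few receptor genes detected and triangles those with many. Oas1a, Usp18, Ifit2, Gbp2 and Ifitm1 are higher in all SR9009 and Vehicle libraries than in Chow, SR9009 replicate 2 stands alone at 34.8 CPM for Gbp2, and Stat2 overlaps across groups.

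SR9009 was also set against Chow, with the same Chow libraries as above, so the values are not independent of those for Vehicle. Here 29 of 43 members were called higher and none lower, against 30.5% and 25.7% of all tested genes, with a median log2 fold change of 1.06. Oas1a was 7.65-fold higher, Ifi44 7.53-fold, Oas3 6.97-fold and Usp18 6.06-fold. In 26 of 43 every SR9009 library was above every Chow library, as 25.5% of all tested genes were. In none was every one below, against 21% of all tested genes. Ddx58 (1.28-fold, adjusted p = 0.0379, a call lost without any 1 of Chow replicates 1 to 3 or SR9009 replicates 1, 3 and 5) and Igtp (1.72-fold, adjusted p = 0.0076) were called here. Stat2 was not called here either (-0.32 ± 0.14, adjusted p = 0.0576). Between the SR9009 libraries with few receptor genes and Chow 35 members were higher, the 6 gained being Ifih1, Dhx58, Irf9, Oasl1, Eif2ak2 and Irgm1, at log2 fold changes of 0.33 (Irgm1) to 0.98 (Dhx58). Between those with many and Chow 27 were higher, without Ddx58 (adjusted p = 0.238) and Ifi27 (adjusted p = 0.065), and 3 were lower, Stat2 (-0.51, adjusted p = 0.000374), Mx2 (-0.67, adjusted p = 0.00191) and Iigp1 (-0.48, adjusted p = 0.0061). Of 18181 tested genes 4487 were higher and 3456 lower in the fit with few, and 5721 and 4658 in the fit with many. As all Chow libraries have few, the fit with many changes class along with diet, injection and drug, and these cannot be told apart.

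Between livers of 1 group, most of the 43 genes moved as a block. Over the 10 diet-fed libraries, with each library taken as its difference from its group mean on the log2 scale, the median correlation between pairs of members was 0.65. These correlations describe 10 libraries that share scaling and receptor class, so no p-value is given. Within the IFIT family the median was 0.86, within the sensors 0.76, and between IFIT genes and sensors 0.83. The sensors, of which Zbp1 alone was called between Vehicle and Chow, thus went up and down with the IFIT genes from liver to liver. The membrane restriction factors were divided. Bst2 and Ifitm3 correlated positively with all 4 IFIT genes, at 0.41 to 0.69 for Bst2 and 0.37 to 0.63 for Ifitm3. Ifitm1 and Ifitm2 correlated negatively with all 4, at -0.65 to -0.25 for Ifitm1 and -0.71 to -0.55 for Ifitm2. Isg20 (-0.57), Ifitm2 (-0.47) and Ifitm1 (-0.42) had the lowest median correlation with the other members, and Irf1, Gbp2 and Gbp5 lay at 0.06, 0.07 and 0.17. Ifit3 had the highest, at 0.85.

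SR9009 replicate 2 is a liver in which these genes diverged. For Ifit1 it had 10.4 CPM, near the low end of the SR9009 range of 10.3 to 33 CPM. The other IFIT genes were less low there. Ifit2 at 17.8 CPM and Ifit3b at 6.75 CPM were the group medians, and Ifit3 was at 24.1 CPM (SR9009 range 18.5 to 38.8 CPM). For Gbp2 this library had 34.8 CPM, for Igtp 63.4 CPM, for Irgm2 111 CPM, for Gbp5 7.62 CPM and for Irf1 62.0 CPM, the highest of all 14 libraries in each. Oasl2 was also the highest of all there, at 37.2 CPM, and Zbp1, at 30.8 CPM, the highest of the SR9009 group. The other 4 GBP and IRG genes were not highest there: Gbp3 was at 21.8 CPM, Gbp7 at 18 CPM, Iigp1 at 242 CPM and Irgm1 at 83.4 CPM, against highest values of 25.8, 23.1, 354 and 86 CPM in other libraries. The same library had the highest raw count of Ifng, 25, and the highest summed level of T and NK cell markers, 19.3 CPM, against 9.25 to 16.1 CPM in the other SR9009 livers. Their part in these levels was not tested. In Vehicle replicate 5, and in SR9009 replicates 1 and 3, the IFIT genes stood highest.

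**Figure D4:**
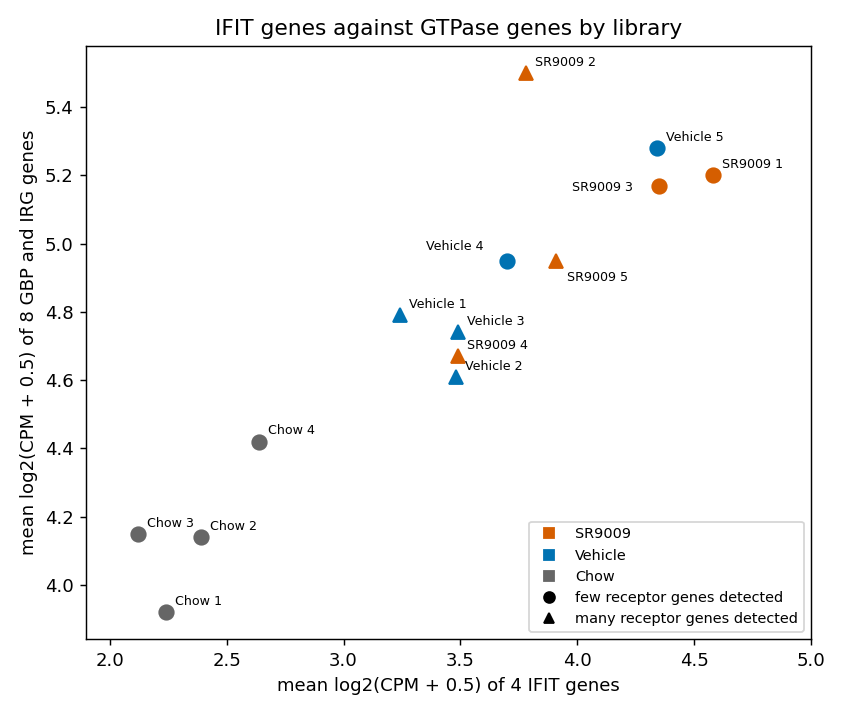
Mean log2(CPM + 0.5) of the 4 IFIT genes (x axis) and of the 8 GBP and IRG genes (y axis) in each SR9009, Vehicle and Chow library; circles are libraries with few receptor genes detected and triangles those with many. SR9009 replicate 2 is highest on the y axis (5.5). At 3.78 on the x axis it lies below SR9009 replicates 1, 3 and 5 and Vehicle replicate 5, and above all other libraries.

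The members also differed between the receptor classes. In 9 of 43 members (20.9%) all 4 diet-fed libraries with few receptor genes were above all 6 with many, against 2.96% of all tested genes, and in none were they all below, against 5.7% of all tested genes. The 9 were Ddx58, Ifih1, Dhx58, Stat2, Usp18, Oas2, Oasl1, Mx2 and Xaf1. The median difference, few minus many, was 0.42 on the log2 scale, against -0.01 over all tested genes, and 38 of 43 were positive. Dhx58 averaged 20.3 CPM (18.8 to 24.3) in libraries with few and 11.1 CPM (9.49 to 14.4) in those with many. Oasl1, not called between Vehicle and Chow, averaged 38.2 CPM (31.5 to 43.2) with few and 22.3 CPM (17.5 to 30.6) with many. Ifit1 had the largest difference, 0.97, at 23.4 CPM with few and 11.7 CPM with many, though the classes overlapped. In the opposite direction lay Isg20 and Ifitm1 (-0.31 each), Ifitm2 and Gbp2 (-0.25 each) and Irf1 (-0.09).

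Other measures moved with the class too. Summed red cell markers were 106 to 152 CPM in the diet-fed libraries with few receptor genes and 243 to 888 CPM in those with many. Cholangiocyte sums were 47.6 to 77.3 CPM with few and 87.8 to 146 CPM with many. B and plasma cell sums were 8.24 to 9.13 CPM with few and 9.56 to 25.5 CPM with many. Neutrophil sums overlapped, at 15.0 to 19.8 CPM with few and 17.7 to 77.3 CPM with many. Monocyte and macrophage sums overlapped, at 964 to 1240 CPM with few and 1180 to 1860 CPM with many. Hepatocyte sums did too, at 61700 to 77200 CPM with few and 58100 to 78500 CPM with many. The sums of the Kupffer cell, plasmacytoid dendritic cell, T and NK cell and sinusoidal endothelium markers also overlapped. The part of these measures in the interferon-stimulated genes was not tested. Both SR9009 and Vehicle hold 2 libraries with few receptor genes and 3 with many.

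Within Chow, replicate 4 was the highest liver over the 43 genes. Its mean log2(CPM + 0.5) was 4.04, against 3.54, 3.77 and 3.69 in replicates 1 to 3. It also had the highest sums of Chow for monocyte and macrophage markers (257 CPM, against 79.5 to 140 CPM in the others) and for Kupffer cell markers (416 CPM, against 116 to 211 CPM). The same means were 5.11, 4.83, 4.99, 4.45 and 4.79 in SR9009 livers and 4.52, 4.42, 4.47, 4.77 and 5.08 in Vehicle livers, so the lowest diet-fed liver was still above the highest Chow liver. Without Chow replicate 4, 27 members were called higher in Vehicle than in Chow, with a median of 1.02.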

How the data were processed

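Bulk liver RNA was measured in 15 described samples, of which 14 libraries were analysed (5 SR9009, 5 Vehicle, 4 Chow); Chow replicate 5 was not analysed here. The authors deposited raw counts per gene identifier, from reads that STAR (2.7.11b) placed on GRCm39 according to the submitters' processing notes. The counting tool and its strand handling were not given in the sources used here, so overlapping and antisense genes are uncertain. Gene symbols came from reference tables (51880 identifiers, 90.8%, holding 99.6% of counts).

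Counts were tested in edgeR 4.0.16 (R 4.3.3): filterByExpr by group (minimum count 10, minimum total 15), TMM, robust quasi-likelihood fits with 1 spread shared by the 3 groups, and Benjamini-Hochberg adjustment over 18181 genes at 0.05. Errors of log2 fold changes are SE, and CPM values use TMM-scaled totals. The biological coefficient of variation was 0.211 in common over genes. Intervals and floors from counts cover counting error only.

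The members, gene lists, receptor class and rules were chosen with earlier results of these data known. Levels in every library are given for up to 3 members per role with the smallest adjusted p in Vehicle versus Chow and for the 6 with the smallest p in SR9009 versus Vehicle; of each pathway list up to 3 and 2 genes are named. Other genes, including Mavs levels per library and those of SR9009 replicate 2, were chosen after their values were seen. Alternatives were DESeq2 1.42.0, limma-voom (limma 3.58.1), other scalings and filters, fits of just the 2 groups compared, a replicate block, the receptor class, and leaving out each library. Replicate numbers were not used as pairs in the report's fit. Within groups, library pairs differed by more than sampling noise (mean chi-square per gene 15.9 or more). Transcript stretches of 100 bases came from GENCODE; the planned protein comparison was not made, as protein sequences were not used here. One gene of the receptor and signalling list, and the count over that list, are not reported here.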

Additional observations from a re-analysis of the deposited data

Results flagged for a closer look

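In each group of 4 or 5 libraries, the highest and lowest library of every member was compared with its neighbour, and 8 of 129 groups held a library far from the others. Chance alone marks about 1 in 20. Vehicle replicate 5 stood high for Zbp1 (36.3 CPM, others 16.5 to 19.5), Ifit2 (19.7 CPM, others 12.2 to 14.3) and Trim30a (25.6 CPM, others 20 to 21.6). Chow replicate 4 stood high for Ddx58 (45.6 CPM, others 36.7 to 37.2) and Ifit2 (3.88 CPM, others 3.05 to 3.19). SR9009 replicate 2 stood high for Gbp2 (34.8 CPM, others 14.4 to 17.8), and SR9009 replicate 4 low for Zbp1 (15.7 CPM, others 28.5 to 30.8). Vehicle replicate 1 stood high for Ifitm2 (33.9 CPM, others 24.2 to 26.4).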

How the results depend on the processing

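Each gene was refitted under 26 alternatives, 14 of which left out 1 library. Of the 27 members called higher in Vehicle than in Chow, 24 kept the call in all 26; Ifi27 lost it in 9 (adjusted p up to 0.248), Gbp7 in 8 (up to 0.141) and Irf7 in 5 (up to 0.143). Against Chow, 27 of 29 SR9009 calls were kept in all 26, while Ifi27 lost its call in 11 and Ddx58 in 9. Raw library totals without TMM moved the median of all genes by 0.48 (Vehicle versus Chow) and 0.45 (SR9009 versus Chow). Under them alone the sign of a value turned and was called: Bst2 at 0.45 (adjusted p = 0.0137), Irgm1 at 0.41 (0.0317) and Ifi35 at 0.47 (0.000885) in Vehicle versus Chow, and Ifitm2 at 0.41 (0.0149) in SR9009 versus Chow. Where the median of all genes lies is set by the scaling chosen, and which scaling is right for these livers was not tested. Members called lower, 0 in the report, numbered 1 in DESeq2, limma-voom (Stat2 in both) and with the receptor class as a term (Ifitm2) in Vehicle versus Chow. They numbered 4 between Vehicle libraries with many receptor genes and Chow, and 0 to 2 without 1 library. In SR9009 versus Chow they numbered 1 in DESeq2, limma-voom and with only the 2 groups compared (Stat2 in all). They numbered 3 between SR9009 libraries with many receptor genes and Chow, and 0 to 1 without 1 library. The fits with many receptor genes also change class, as all Chow libraries have few. The cause of these differences between fits was not tested. Members called higher numbered 24 to 28 and 27 to 30 without 1 library. Between SR9009 and Vehicle no alternative called a member. Over all genes that comparison gave 44 calls in the report's fit, 212 in DESeq2, 66 in limma-voom, 78 with the class as a term, 10 within few and 21 within many receptor genes, and 18 (without SR9009 replicate 4) to 56 (without Vehicle replicate 2). Correlations of same-numbered libraries ran from -0.37 to 0.20. Libraries with different numbers were not compared in this way, so whether the numbers pair samples is not settled. With the replicate block 15 of all genes were called between SR9009 and Vehicle. Members higher were then 24, 0 and 28 (Vehicle to Chow, SR9009 to Vehicle and SR9009 to Chow, in that order). Leaving out Chow replicate 4 and SR9009 replicate 2 together, chosen after seeing the data, gave 29, 0 and 30. Counts too low for a test left out all interferon ligands and a few other listed genes, but no member.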
